A study of Mus musculus with 84 samples.

Results

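Browning is the appearance of heat-producing, mitochondria-rich adipocytes in a white fat depot. Sympathetic nerves start it through the beta-3 adrenergic receptor and cAMP, and the coactivators PGC-1alpha and PGC-1beta and the regulator PRDM16 then favour mitochondrial and brown fat genes. UCP1 makes the inner mitochondrial membrane leak protons, so that fuel is burned as heat. Epididymal fat of the mouse is known as a depot that browns poorly.

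The genes described here were 10 markers and regulators of this programme, chosen by symbol: the receptor gene Adrb3, the regulators Prdm16, Ppargc1a and Ppargc1b, the enzyme gene Dio2, and the effectors Ucp1, Elovl3, Cox7a1, Cox8b and Ckmt2. All 10 were among the 48794 genes listed, and 9 passed the filter on low values that left 18536 genes to test in epididymal white adipose tissue (eWAT). Ckmt2 did not pass. Ppargc1a and Ppargc1b were also read in liver, where 15964 genes were tested.

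The mice were male C57BL/6J made obese with a diet of 60% fat, which every group ate, and they were housed singly and were 22 weeks old at the start. For 30 days they received, under the skin, semaglutide (100 or 20 nmol/kg), vehicle, or BI 456906 in one of 4 doses (30, 20, 10 and 3 nmol/kg). BI 456906 is a peptide that activates the glucagon and GLP-1 receptors, and semaglutide activates the GLP-1 receptor. RNA of eWAT and of liver was sequenced from 6 mice per group, which gave 42 libraries in each tissue, and the 6 treatments of a tissue share its vehicle mice. No cold-exposed mice, as a reference for a browned depot, and no lean mice were analysed here.

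The eWAT libraries held 37573004 to 53996914 reads on genes and the liver libraries 21676902 to 53869104. Adipocyte transcripts were abundant in every eWAT library, the sum of 8 adipocyte markers being 12943 to 37592 TPM (a transcript's share of its library, corrected for gene length). Markers of other tissues were present as well. The sum of 8 hepatocyte markers was 26.6 to 6725 TPM among vehicle mice and 28.4 to 1157 TPM at 30 nmol/kg BI 456906, and the sum of 5 mesothelial markers was 9.5 to 129 TPM and 58.8 to 194 TPM. In bulk tissue, fewer cells of a type and less RNA per cell cannot be told apart.

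Of the 10 genes, 1 changed by the study's criterion in eWAT, a log2 fold change of at least 1 in size at an FDR of at most 0.05. Ppargc1a rose at 30 nmol/kg BI 456906, by 1.15 on the log2 scale, where 6.34% of all tested genes were called and 2.28% were called higher. Cox8b rose by less at that dose, and Ucp1 stayed among the least abundant transcripts in all 7 groups. Among the 36 treated mice, 2 had more than 3 of the 9 tested genes above the highest vehicle mouse, and both had received 30 nmol/kg BI 456906. In these 2 mice 25.4% and 23.3% of all tested genes were above.

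**Figure D1:**
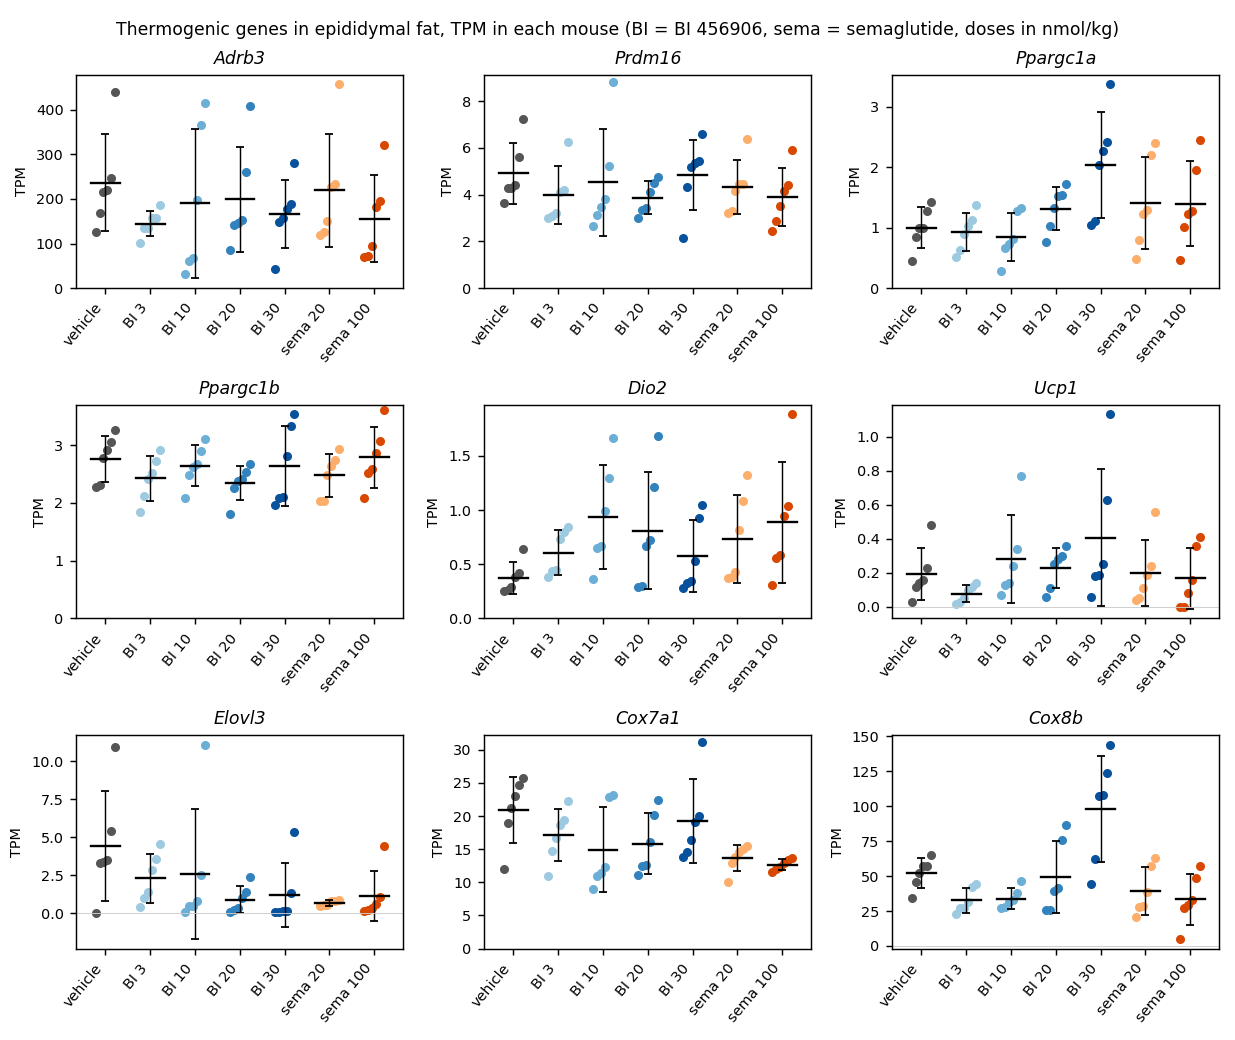
Level in TPM (y axis) of the 9 tested genes in each eWAT library, by treatment (x axis, doses in nmol/kg), with a point for each mouse and the mean and SD of 6 mice as a line and bar. Ppargc1a and Cox8b at 30 nmol/kg BI 456906 have 4 of 6 mice each above the highest vehicle mouse, while the points of every treated group overlap those of vehicle.

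Adrb3 encodes the receptor through which noradrenaline starts lipolysis and thermogenesis in rodent fat (GRCm38 chr8:27225776-27250616, minus strand). It was the most abundant of the 10 genes, at 126, 218 and 440 TPM (lowest, median and highest vehicle mouse) and at 43.5, 167 and 280 TPM at 30 nmol/kg BI 456906. Levels overlapped in all groups, and the log2 fold change was lowest at 10 nmol/kg, with -0.78 (SE 0.49, FDR 0.439), and nearest to 0 with 20 nmol/kg semaglutide, where it was -0.20 (SE 0.51, FDR 0.871). No treatment changed it by the test. Over the 42 libraries its level followed that of the adipocyte gene Adipoq, chosen after its values were seen (Pearson r of log2 TPM 0.86, Spearman rho 0.81, r without the 2 libraries farthest from the Adipoq median 0.85), as a description of libraries that share their RNA and depth.

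Prdm16 encodes a zinc finger regulator of brown and beige fat identity (chr4:154316125-154636873, minus strand). Its levels were 3.63, 4.36 and 7.23 TPM in vehicle mice, and 2.15, 5.26 and 6.60 TPM at 30 nmol/kg BI 456906, and ranged from 2.15 to 8.80 TPM over all mice. The difference at 30 nmol/kg was -0.04 (SE 0.19, interval -0.43 to 0.35, FDR 0.909), and the largest of the other doses was -0.27 (SE 0.20, FDR 0.382) at 100 nmol/kg semaglutide.

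Ppargc1a encodes PGC-1alpha, the coactivator that cAMP signalling induces in fat and liver (chr5:51454250-51567726, minus strand). It was low in eWAT, at 0.45, 1.00 and 1.42 TPM with vehicle. At 3 nmol/kg BI 456906 the values were 0.52, 0.96 and 1.38 TPM, and at 10 nmol/kg they were 0.29, 0.77 and 1.32 TPM, within or below the vehicle range. At 20 nmol/kg they were 0.76, 1.43 and 1.72 TPM, with 3 mice above it.

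At 30 nmol/kg BI 456906 the Ppargc1a levels reached 1.04, 2.16 and 3.38 TPM, and 4 of 6 mice lay above the highest vehicle mouse. The rise was 1.15 on the log2 scale (SE 0.36, interval 0.43 to 1.87, FDR 0.0177), or 2.22-fold. Semaglutide gave 0.49, 1.26 and 2.40 TPM at 20 nmol/kg and 0.46, 1.25 and 2.45 TPM at 100 nmol/kg, with 2 mice above the vehicle range at each dose and log2 fold changes of 0.52 (FDR 0.454) and 0.65 (FDR 0.247). With the summed adipocyte markers as a covariate, 100 nmol/kg semaglutide was called as well, at 1.20 (FDR 0.000924). Over the 42 libraries the Pearson r of log2 TPM between Ppargc1a and Adipoq was 0.58 (Spearman rho 0.62). With the mesothelial gene Upk3b it was 0.38 (rho 0.40), both genes being chosen after their values were seen. Of the 5 mesothelial markers, 3 (Upk3b, Msln and Krt19) were called higher at 30 nmol/kg, where 2.28% of all genes were. With their summed level as a covariate the rise of Ppargc1a was 0.94 (FDR 0.0961), on a scale of log2(TPM + 1) it was 0.57 (FDR 0.0363), and on log2(TPM + 0.1) it was 0.92 and missed the FDR as well (0.0596). Their part in the result was not tested. A read of Ppargc1a was also not worth the same in every library: reads per TPM ran from 73.2 to 195, a ratio of 2.66 between the extremes, against 1.39 to 1.70 for the other 8 tested genes, and 21 rather than 11 treated mice lay above the vehicle range when reads per TMM-scaled library were used in place of TPM.

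Ppargc1b encodes PGC-1beta, the related coactivator. Vehicle mice had 2.27, 2.85 and 3.26 TPM, and mice at 30 nmol/kg BI 456906 had 1.97, 2.46 and 3.54 TPM. No dose passed the test, and the intervals were narrow, from -0.39 to 0.17 at 30 nmol/kg (log2 fold change -0.11, FDR 0.598).

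Dio2 encodes the deiodinase that makes active thyroid hormone inside brown adipocytes (chr12:90724552-90738438, minus strand). Levels were 0.25, 0.34 and 0.64 TPM in vehicle mice, 0.36, 0.83 and 1.67 TPM at 10 nmol/kg BI 456906 and 0.28, 0.44 and 1.05 TPM at 30 nmol/kg. At 10 nmol/kg 5 of 6 mice were above the highest vehicle mouse, and at 30 nmol/kg 2 of 6. At 10 nmol/kg the log2 fold change of 1.28 (SE 0.48) missed the threshold at an FDR of 0.194, as did that of 1.14 (SE 0.48, FDR 0.103) with 100 nmol/kg semaglutide. The value for semaglutide passed it in edgeR (1.29, FDR 0.0464), in DESeq2 (1.29, FDR 0.0240) and in limma without library 39 (1.42, FDR 0.0490). The value at 10 nmol/kg BI 456906 passed with sample quality weights (1.48, FDR 0.0285), and 20 nmol/kg did with the adipocyte covariate (1.08, FDR 0.0260).

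The Dio2 value was not highest at the highest dose: its slope over the BI 456906 dose was 0.08 log2 units per 10 nmol/kg (interval -0.21 to 0.36, FDR 0.696). Library numbers identify single mice here, numbered 1 to 42 over the eWAT libraries.

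Ucp1 encodes the uncoupling protein itself, the defining gene of thermogenic adipocytes (chr8:83290352-83298452, plus strand). All 42 eWAT libraries together held 400 reads of it, 1 library held none, and 8.94% of the tested genes had a lower mean level. Vehicle mice had 0.03, 0.15 and 0.48 TPM, from 1 to 21 reads, and mice at 30 nmol/kg BI 456906 had 0.06, 0.22 and 1.13 TPM, from 4 to 47 reads. As means these were 0.193 ± 0.155 and 0.407 ± 0.404 TPM (SD, n = 6).

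Ucp1 levels at 30 nmol/kg overlapped those of vehicle, with 2 of 6 mice above. The difference was 1.01 (SE 0.68, interval -0.36 to 2.38, FDR 0.288), and the interval held both no change and a rise of up to 5.20-fold. At 3, 10 and 20 nmol/kg the log2 fold changes were -0.62, 0.72 and 0.43 with FDR from 0.622 to 0.864. With semaglutide the intervals were -1.496 to 1.495 at 20 nmol/kg and -2.02 to 1.11 at 100 nmol/kg. The relatives Ucp2 and Ucp3 were far more abundant, the mean TPM with vehicle being 7341 times that of Ucp1 for Ucp2 and 70.3 times for Ucp3. Neither changed at 30 nmol/kg (0.08, FDR 0.780, and 0.22, FDR 0.583).

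The stretches of 250 bases before the start of Ucp1, Dio2 and Ppargc1a are shown because these genes are known targets of cAMP signalling, the pathway of both the adrenergic and the glucagon receptor. They come from RefSeq on GRCm38.p6, 5′ to 3′ on the strand of the gene, with capitals at the cAMP response element TGACGTCA or its shorter form TGACG, read on either strand (CGTCA). Ucp1 lies at chr8:83290098-83290347, Dio2 at chr12:90739039-90739288 and Ppargc1a at chr5:51567726-51567975. The starts are those of RefSeq, while the gene spans given with each gene come from another annotation. The Dio2 window does not adjoin its span, which ends at 90738438.
Ucp1: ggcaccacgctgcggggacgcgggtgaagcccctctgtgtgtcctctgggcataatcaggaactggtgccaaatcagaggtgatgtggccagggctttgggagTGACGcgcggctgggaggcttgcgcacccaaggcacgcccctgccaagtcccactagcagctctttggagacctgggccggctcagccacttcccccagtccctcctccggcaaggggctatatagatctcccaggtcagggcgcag
Dio2: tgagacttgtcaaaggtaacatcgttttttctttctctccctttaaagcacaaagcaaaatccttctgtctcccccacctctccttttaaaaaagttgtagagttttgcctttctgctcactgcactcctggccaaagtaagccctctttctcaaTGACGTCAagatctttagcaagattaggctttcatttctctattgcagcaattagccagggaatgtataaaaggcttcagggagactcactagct
Ppargc1a: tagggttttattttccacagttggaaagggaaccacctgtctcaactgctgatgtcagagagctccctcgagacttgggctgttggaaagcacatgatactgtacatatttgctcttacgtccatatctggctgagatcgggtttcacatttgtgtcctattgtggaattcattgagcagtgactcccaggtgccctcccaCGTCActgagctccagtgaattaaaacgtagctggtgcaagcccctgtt

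The window of Dio2 held the full TGACGTCA once, which 508 of 32851 promoters (1.55%) held in windows of the same length. The windows of Ucp1 and Ppargc1a each held the short form once, as 17.8% of the promoters did. The table held 7 of the 10 genes, and the windows of Cox8b, Cox7a1, Prdm16 and Ckmt2 held neither form. A match describes these letters and not a bound site.

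Elovl3 encodes an elongase of very long fatty acids that is induced in brown fat by cold and is also expressed in liver (chr19:46131897-46135694, plus strand). In vehicle mice it was at 0.03, 3.44 and 10.9 TPM, and at 30 nmol/kg BI 456906 at 0.08, 0.14 and 5.32 TPM. The difference of -2.69 (SE 1.27, interval -5.26 to -0.12) missed the threshold at an FDR of 0.119. Vehicle mouse 1 held the lowest value, and without it the difference was -3.83 (FDR 0.00368), with 4 treatments called lower.

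The hepatocyte transcripts in eWAT moved with Elovl3. At 30 nmol/kg 2 of the 8 markers (Ttr and Apoc3) were called lower, where 6.34% of all genes were called in either direction. Over the 42 libraries the TPM of Elovl3 followed that of albumin (Alb), which ran from 3.47 to 3680 TPM (Pearson r of log2 TPM 0.89, Spearman rho 0.89, r without the 2 libraries farthest from the Alb median 0.87), as a description of values that share a library. In the 19 eWAT libraries with more than 100 TPM of Alb there were 6.50 TPM of Elovl3 per 1000 TPM of Alb (median, range 0.547 to 16.9). In the 42 livers this was 6.29 (0.0628 to 18.8). The eWAT median leaves out the libraries with less Alb. Among those, semaglutide mice 31, 32, 34 and 40 had 24.1, 19.2, 21.4 and 40.3, above the highest liver. The others were within the liver range. Across the livers Elovl3 did not follow Alb (Pearson r of log2 TPM 0.06, Spearman rho 0.14). The source of Elovl3 in eWAT was not tested. With the summed hepatocyte markers as a covariate, the difference at 30 nmol/kg was 0.04 (FDR 0.967), and the sign turned at all 6 treatments. With the mesothelial covariate it was -4.59 (FDR 0.00399) and with sample quality weights -3.97 (FDR 0.00936), both called.

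**Figure D2:**
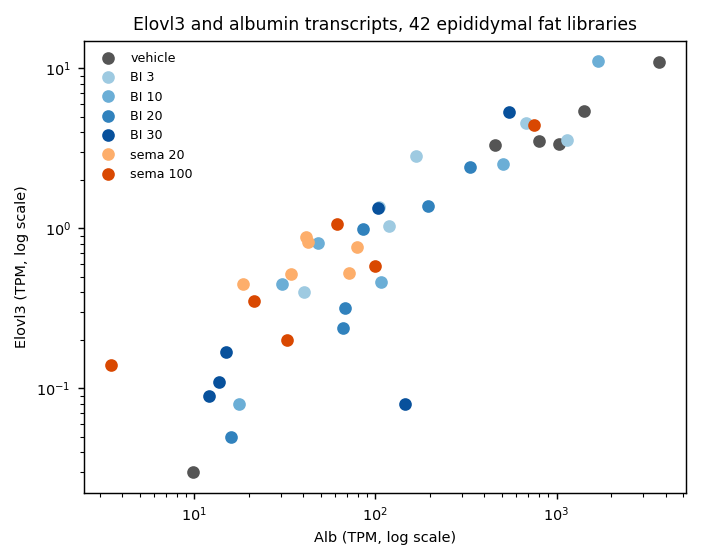
Elovl3 level (y axis, TPM, log scale) against albumin level (x axis, TPM, log scale) in the 42 eWAT libraries, with a point for each mouse coloured by treatment. The points rise together from 3.47 to 3680 TPM of Alb (Pearson r 0.89), and the vehicle mice run from 9.87 to 3680 TPM of Alb.

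Cox7a1 encodes the heart and brown fat isoform of a cytochrome c oxidase subunit (chr7:30184144-30186078, plus strand). Its levels were 11.98, 22.1 and 25.7 TPM in vehicle mice, 13.8, 17.8 and 31.1 TPM at 30 nmol/kg BI 456906 and 11.6, 12.6 and 13.6 TPM at 100 nmol/kg semaglutide. At that semaglutide dose the log2 fold change was -0.63 (SE 0.20, FDR 0.0314), a fall under the fold threshold, and 2 of 6 mice were below the lowest vehicle mouse. At 30 nmol/kg BI 456906 the difference was -0.12 (SE 0.19, FDR 0.671).

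Cox8b encodes the corresponding isoform of subunit VIII (chr7:140898945-140900446, minus strand). Vehicle mice had 34.2, 54.9 and 65.1 TPM, mice at 3 nmol/kg BI 456906 had 22.8, 29.5 and 44.4 TPM, and those at 30 nmol/kg had 44.1, 108 and 144 TPM. At 3 nmol/kg 4 of 6 mice were below the vehicle range, and at 30 nmol/kg 4 of 6 were above it. The rise at 30 nmol/kg was 0.84 (SE 0.32, interval 0.20 to 1.49, FDR 0.0494), under the fold threshold. It passed both thresholds without library 28 (1.09, FDR 0.00889), a mouse at 30 nmol/kg whose sum of 8 epididymis markers was 5.92 TPM, against at most 0.03 TPM with vehicle, and over all libraries left out in turn its FDR ran from 0.00889 to 0.104.

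The isoforms that most cells use stayed ahead of both genes. With vehicle the mean TPM of Cox8a was 16.4 times that of Cox8b, and that of Cox7a2 was 9.76 times that of Cox7a1. Cox8a and Cox7a2 did not pass the test at 30 nmol/kg (0.17, FDR 0.306, and 0.09, FDR 0.394). Skeletal muscle also uses Cox7a1 and Cox8b. Of 10 muscle markers 8 were tested. At 30 nmol/kg 1 was called (Actn3, higher by 1.20), where 2.28% of all genes were called higher. The sum of the 10 markers was 62.9 to 165 TPM with vehicle and 86.3 to 194 TPM at that dose, most of it Acta1. Of 2 defining muscle genes chosen after their values were seen, Ckm reached at most 1.17 TPM among vehicle mice and 0.21 TPM at 30 nmol/kg, and Myh4 did not exceed 0.01 TPM. Other markers of the list, chosen in the same way, were higher, with Tnni2 at 3.31 TPM and Mylpf at 2.16 TPM on average. A part of muscle in the levels of Cox7a1 and Cox8b was not tested.

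Ckmt2 encodes the sarcomeric mitochondrial creatine kinase of the creatine cycle (chr13:91853387-91876885, minus strand). It had 7 reads in eWAT, 1 in each of 7 libraries, and its TPM was above 0 in 2 libraries (0.03). In a fit without the filter on low values, its log2 fold changes against vehicle were between 0.03 and 0.54 with FDR of at least 0.485, on counts of 0 or 1.

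Against vehicle, the 9 tested genes and 6 treatments gave 54 tests. Of these 1 was called higher and none lower, 3 passed the FDR alone (Ppargc1a and Cox8b higher at 30 nmol/kg BI 456906, Cox7a1 lower at 100 nmol/kg semaglutide), and 9 had an unadjusted p under 0.05. The single call at 30 nmol/kg was 1 of 9 genes, where 6.34% of all tested genes were called and 2.28% were called higher. For the other doses of BI 456906 no member was called, where 0.0% (3 nmol/kg), 0.232% (10 nmol/kg) and 1.49% (20 nmol/kg) of all genes were, nor for semaglutide, where 2.24% (20 nmol/kg) and 4.13% (100 nmol/kg) were. By the FDR alone, 2 of 9 rose at 30 nmol/kg, where 10.9% of all genes did, and 1 of 9 fell at 100 nmol/kg semaglutide, where 9.42% did. In either direction, 23.9% of all genes passed the FDR at 30 nmol/kg, 4.27%, 0.513% and 0.00539% at 20, 10 and 3 nmol/kg, and 6.33% and 14.9% with semaglutide at 20 and 100 nmol/kg. The median log2 fold change of the 9 genes at 30 nmol/kg was -0.04, against -0.03 over all genes.

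**Figure D3:**
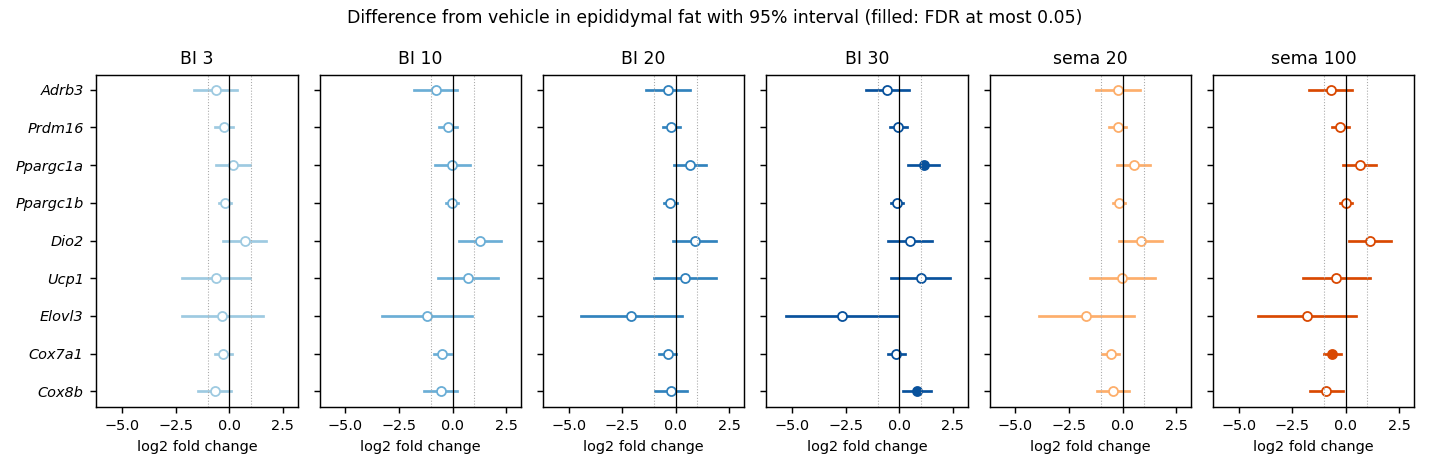
Log2 fold change against vehicle (x axis) of the 9 tested genes (rows) in eWAT, a panel for each treatment, with 95% intervals from limma/voom and filled points where the FDR was at most 0.05. The filled points are Ppargc1a (1.15) and Cox8b (0.84) at 30 nmol/kg BI 456906 and Cox7a1 (-0.63) at 100 nmol/kg semaglutide.

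Over the dose of BI 456906 from vehicle to 30 nmol/kg, 2 of 9 genes had a slope that passed the FDR, where 29.5% of all genes did and 13.8% rose. Ppargc1a rose by 0.38 log2 units per 10 nmol/kg (SE 0.10, FDR 0.00459) and Cox8b by 0.34 (SE 0.09, FDR 0.00704). The slope of Ucp1 was 0.40 (SE 0.20, FDR 0.113) and that of Elovl3 -0.91 (SE 0.37, FDR 0.0617). For Ucp1 it passed in DESeq2 (0.48, FDR 0.0484), with sample quality weights (0.55, FDR 0.0143) and without library 29 (0.50, FDR 0.0456). It missed the FDR in the other settings. On log2(dose + 1) the slope of Ppargc1a alone passed. With the mesothelial covariate Cox8b missed the FDR (0.28, FDR 0.0535), while Ppargc1a and Elovl3 (-1.43, FDR 0.00286) passed.

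BI 456906 was compared with semaglutide in 27 tests of the 9 genes, and none was called (0 by limma at the FDR, 5 at an unadjusted p under 0.05). Of all genes, 0.0% were called between both compounds at 20 nmol/kg and between 30 and 20 nmol/kg, and 0.00539% between 30 and 100 nmol/kg (0.0108% by the FDR alone). The equal dose of 20 nmol/kg was the matched one. There Ucp1 differed by 0.43 (interval -1.003 to 1.87), Ppargc1a by 0.14 (-0.57 to 0.86), Cox8b by 0.23 (-0.53 to 1.00) and Dio2 by 0.02 (-0.89 to 0.94). These intervals do not show that the compounds act alike.

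At unequal doses Cox8b stood apart. It was at 44.1 to 144 TPM at 30 nmol/kg BI 456906 and at 5.06, 31.2 and 57.02 TPM at 100 nmol/kg semaglutide, and the groups overlapped. The difference was 1.75 (SE 0.36, interval 1.02 to 2.48) and missed the threshold at an FDR of 0.0505. It passed in edgeR (1.51, FDR 0.0340) and in DESeq2 (1.53, FDR 0.00433), and in limma with 26 of the 42 libraries left out in turn. Ucp1 differed by 1.47 (SE 0.71, interval 0.02 to 2.91, FDR 0.197). It was called only with sample quality weights (1.77, FDR 0.0296). Cidea, a lipid droplet gene of brown fat that is no member and was chosen after its values were seen, went the same way, with 1.42 (FDR 0.0540). It comes from a list of further brown and beige fat genes, 18 of them tested. Their median in this comparison was 0.16, against -0.01 over all genes.

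How many mice stood above vehicle was counted per mouse and gene. Of the 324 values of 36 treated mice and 9 genes, 48 were above the highest vehicle mouse (14.8%, against 17.6% for all tested genes) and 65 below the lowest (20.1%, against 16.5%). Dio2 gave 20 of the 48, Ppargc1a 11 and Ucp1 4. A single vehicle mouse set some of these numbers: without vehicle mouse 2 the number for Ppargc1a was 17, and without vehicle mouse 1 that for Ucp1 was 14. At 30 nmol/kg BI 456906, 15 of 54 values were above (27.8%, against 20.9%). In the other 5 groups the share was under that of all tested genes. It was 3 values (5.56%, against 13.1%) at 3 nmol/kg, 8 (14.8%, against 15.7%) at 10 nmol/kg and 9 (16.7%, against 19.4%) at 20 nmol/kg, and with semaglutide 7 (13%, against 17.8%) at 20 and 6 (11.1%, against 18.6%) at 100 nmol/kg.

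Mice 25 and 26, both at 30 nmol/kg, had 5 of the 9 genes above the highest vehicle mouse (55.6%), where 25.4% and 23.3% of all tested genes were. In mouse 25 these were Ucp1 (1.13 TPM), Cox7a1 (31.1 TPM), Cox8b (144 TPM), Ppargc1a (3.38 TPM) and Ppargc1b. In mouse 26 they were Ucp1 (0.63 TPM), Dio2, Cox8b (124 TPM), Ppargc1a (2.27 TPM) and Ppargc1b. Mouse 31 at 20 nmol/kg semaglutide had 3, the other 33 treated mice had 2 or fewer, and 6 had none. The remaining 4 mice at 30 nmol/kg had Ucp1 at 0.06 to 0.25 TPM, within the vehicle range, while Cox8b was above that range in 2 of them. The counts rest on the highest of 6 vehicle mice. Against the second highest, 84 of the 324 values were above.

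**Figure D4:**
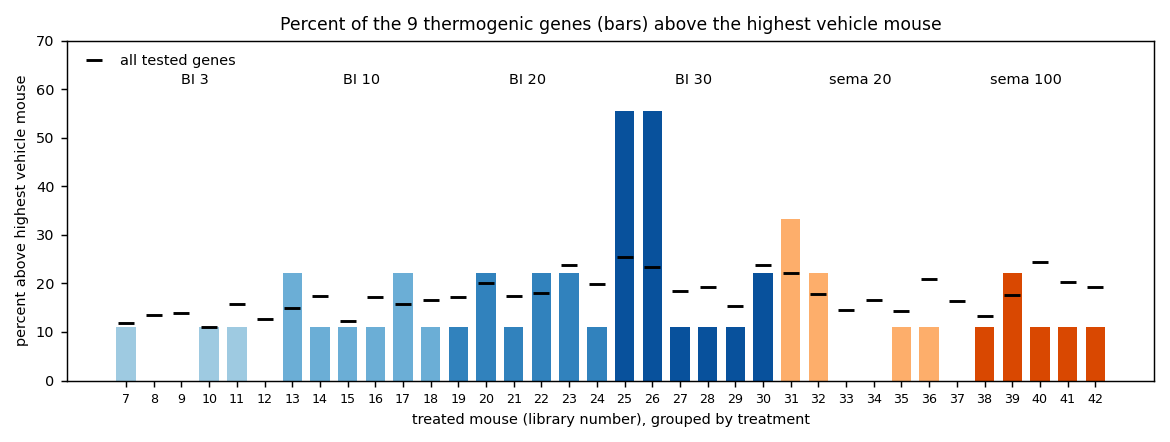
Percent of the 9 genes above the highest vehicle mouse (bars, y axis) in each of the 36 treated mice (x axis, library number, grouped by treatment), with the same percent over all tested genes as a dash. Mice 25 and 26 reach 55.6%, and the bars of 6 mice are at 0.

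Likeness to Ucp1 was measured as the Pearson correlation of log2 values over the 42 eWAT libraries. The 5 most alike of 18535 genes were Map3k5 (0.63), Mrm3 (0.61), BC065397 (0.61), Gm29257 (0.61) and Gm37296 (0.59), and none of the other members was among the first 100. Cox8b was the closest of them, at rank 510 (0.42), and Cidea was at rank 267 (0.45). With 0 to 47 reads of Ucp1 per library these values are a weak description. Cox8b and Cidea went together more closely (Pearson r of log2 TPM 0.82, Spearman rho 0.77, r without the 2 libraries farthest from the Cidea median 0.77).

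In liver, Ppargc1a and Ppargc1b rose with treatment. Ppargc1a drives gluconeogenic genes there. It was at 1.07, 1.63 and 1.84 TPM in vehicle mice, and 5.09, 7.44 and 7.68 TPM at 30 nmol/kg BI 456906, and from 10 nmol/kg up, and at both semaglutide doses, no treated mouse overlapped vehicle. The same held for Ppargc1b in these groups, and the share of all liver genes without overlap was not counted. The log2 fold changes of Ppargc1a at 3, 10, 20 and 30 nmol/kg were 0.56, 1.15, 1.38 and 1.92 (SE 0.14 at 30 nmol/kg, FDR 2.46e-13), and 1.19 at each semaglutide dose. Of all genes 0.783%, 4.07%, 6.69% and 12.9% were called at these doses of BI 456906, and 6.08% and 6.75% at 20 and 100 nmol/kg semaglutide.

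Ppargc1b in liver was at 1.29, 1.38 and 2.04 TPM in vehicle mice, and 3.04, 4.14 and 4.45 TPM at 30 nmol/kg. It was called at 30 nmol/kg (1.33, SE 0.18, FDR 5.26e-08) and at both semaglutide doses (1.04 and 1.06). Together both genes gave 8 calls in 12 liver tests, and 11 passed the FDR alone, where 13.4%, 37.5%, 45.9% and 58.8% of all genes did at 3, 10, 20 and 30 nmol/kg BI 456906 and 46.5% and 48.2% with semaglutide at 20 and 100 nmol/kg. Liver Ppargc1a was also higher at 30 nmol/kg BI 456906 than at 100 nmol/kg semaglutide, by 0.73 (SE 0.12, FDR 8.63e-05), under the fold threshold. These doses are unequal. Between the compounds at the equal dose of 20 nmol/kg, 0 of the 2 genes passed the FDR in liver, with 1 higher and 1 lower. Comparisons of the compounds in liver were not planned, and the share of all genes is not given for them.

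Whether the tissues differed was tested directly as an interaction over all 84 libraries and 15297 genes, with 6 of 12 differences at an FDR of at most 0.05. Of all genes, 3.37%, 26.7%, 31.9% and 45.9% differed at 3, 10, 20 and 30 nmol/kg BI 456906, and 31.8% and 33.9% with semaglutide at 20 and 100 nmol/kg. At 30 nmol/kg the response of Ppargc1b in eWAT was lower than in liver by 1.33 (eWAT minus liver -1.33, SE 0.22, FDR 1.07e-06). For Ppargc1a the difference at 30 nmol/kg was -0.66 (SE 0.36, interval -1.37 to 0.05, FDR 0.126) and missed the threshold. It passed on log2(TPM + 1) (-1.08, FDR 8.83e-05), on log2(TPM + 0.1) (-1.20, FDR 0.00889), without vehicle mouse 1 (-0.95, FDR 0.0293) and without eWAT mouse 40 at 100 nmol/kg semaglutide (-0.77, FDR 0.0484). At 10 nmol/kg it was -1.10 (FDR 0.0308).

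**Figure D5:**
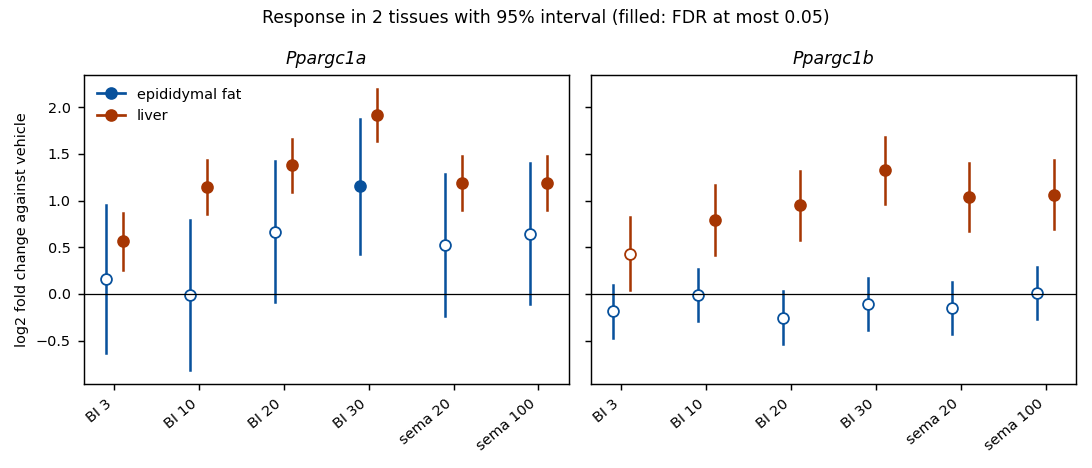
Log2 fold change against vehicle (y axis) of Ppargc1a and Ppargc1b in eWAT and liver for each treatment (x axis), with 95% intervals and filled points where the FDR was at most 0.05. The liver points of Ppargc1b run from 0.43 to 1.33, while its eWAT points run from -0.25 to 0.01.

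Other genes of the programme are given from lists, at 30 nmol/kg BI 456906 in eWAT. Of 20 further brown and beige fat genes 18 were tested, 1 was called higher and 3 lower, where 2.28% of all genes were called higher and 6.34% in either direction. Their median was -0.51, against -0.03 over all genes. Tbx1, a beige fat marker, rose by 4.01 from levels of 0.00 to 0.40 TPM to 0.12 to 1.14 TPM. Otop1 fell by 1.47 (vehicle 4.15 to 6.34 TPM, treated 1.49 to 2.87 TPM) and Pank1 by 1.17. Slc27a2, a fatty acid transporter gene that liver also expresses, fell by 3.72. The most abundant of them, Letmd1, was at 28.3 TPM on average and did not pass the test (0.07, FDR 0.220). By the FDR alone 2 of the 18 rose and 5 fell, where 10.9% of all genes rose and 23.9% passed in either direction. Cidea rose by 0.97 (SE 0.31, FDR 0.0196), from 4.3, 5.1 and 8.1 to 6.98, 9.98 and 17.8 TPM, under the fold threshold. Gyk (-0.64, FDR 0.0206) and Kcnk3 (-0.73, FDR 0.0366) fell, also under the fold threshold. Cidea, Gyk and Kcnk3 are named after their values were seen.

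Other routes of heat production gave no call. None of 6 creatine cycle genes, 4 tested calcium cycle genes, 4 uncoupling and carrier genes and 7 cytochrome c oxidase genes was called at 30 nmol/kg, where 6.34% of all genes were. By the FDR alone 2 creatine cycle genes fell, Gatm (-0.78, FDR 0.0239) and Gamt (-0.66, FDR 0.0105), named after their values were seen. By that rule 1 calcium cycle gene also fell, and 1 uncoupling and carrier gene and 2 oxidase genes rose. Of all genes, 23.9% passed it in either direction and 10.9% rose. The most abundant genes of these lists were the creatine kinase gene Ckb (360 TPM on average, -0.10, FDR 0.870), the calcium pump gene Atp2a2 (103 TPM, -0.21, FDR 0.0249), Ucp2 (1569 TPM) and the oxidase subunit gene Cox4i1 (1054 TPM, 0.28, FDR 0.00504). Of 9 tested genes of mitochondrial biogenesis 1 was called, where 6.34% of all genes were called in either direction. It was Esrrg, which fell by 1.10, and none was called higher. The most abundant of the 9 was Polg, the mitochondrial DNA polymerase gene (43.6 TPM, 0.09, FDR 0.326). None of 8 cAMP target genes and none of 6 lipolysis genes was called. By the FDR alone, 1 of the 8 cAMP target genes rose, Per1 (0.98, FDR 6.30e-05), and 0 fell. Of the 6 lipolysis genes 1 rose and 0 fell. Of all tested genes 10.9% rose by that rule. The groups did not overlap for Per1 and, in the other direction, for Crem (-0.22, FDR 0.373). Both were chosen after their values were seen, and the share of all genes without overlap was not counted. The most abundant genes of the cAMP target and lipolysis lists were Atf3 (194 TPM, -0.28, FDR 0.534) and the lipase gene Pnpla2 (1581 TPM, 0.63, FDR 0.0732).

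Receptor genes upstream of the programme were read as well. The most abundant of that list, the thyroid hormone receptor gene Thra, was at 60.9 TPM on average and did not pass the test (0.22, FDR 0.0635). The receptors of the drugs were looked up after their values were seen. The glucagon receptor gene Gcgr was at 1.61, 7.67 and 18.96 TPM in vehicle mice and 1.55, 3.94 and 5.80 TPM at 30 nmol/kg (-0.94, FDR 0.112). Glp1r did not exceed 0.09 TPM in any eWAT library.

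The remaining lists mark cell types. Of 8 adipocyte markers 1 was called, Lep, the gene of the hormone leptin, where 6.34% of all genes were called in either direction. Lep fell by 1.90 on the log2 scale (FDR 0.00165), from 810 to 1646 TPM with vehicle to 170 to 527 TPM at 30 nmol/kg. By the FDR alone 2 of the 8 fell and 0 rose, where 23.9% of all genes passed in either direction. The other was Lpl, named after its values were seen (-0.70, FDR 1.10e-06), under the fold threshold. It went from 2740 to 3708 TPM with vehicle to 1649 to 1990 TPM at 30 nmol/kg. Fabp4 was the most abundant adipocyte marker, at 15695 TPM on average (0.23, FDR 0.476). None of 8 macrophage markers, 5 stromal markers and 4 tested nerve markers was called, and their most abundant genes were Lyz2 (4472 TPM), Col3a1 (710 TPM) and Npy (12.6 TPM). By the FDR alone 1 nerve marker rose, and no macrophage or stromal marker passed. Th, the gene of the enzyme that starts noradrenaline synthesis, had no read in any vehicle mouse or any mouse at 30 nmol/kg. None of 8 epididymis markers was abundant enough to be tested, the highest mean being that of Adam7 at 0.128 TPM.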

How the data were processed

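RNA of eWAT and liver from 84 libraries was read by the authors, and the submitters' notes name STAR 2.5.2b, RSEM 1.3.0, featureCounts 1.5.1 and FastQC 0.11.5 with the builds mm10 and GRCm38. The deposited count tables hold a signal, whole reads divided by one factor per library, although counts had been assumed in the design. The reads were recovered from the smallest step (tolerance 0.01). The deposited TPM values served for levels. All 168 columns were used. voom weights and linear models (limma 3.58.1 with edgeR 4.0.16, under R 4.3.3) were fitted per tissue to the deposited values over 7 group means with TMM factors, filterByExpr and Benjamini-Hochberg adjustment over all genes, and genes were called at a log2 fold change of at least 1 in size with an FDR of at most 0.05. Slopes were linear contrasts on the dose. Alternatives included edgeR's quasi-likelihood test and DESeq2 1.42.0 on the recovered reads. The covariate fits were added after seeing the data. The procedure was tested on simulated data.

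The members and lists were chosen with earlier results of these data known. The named genes are all members, the partners Ucp2, Ucp3, Cox8a and Cox7a2, and from each further list at most 4 called genes with the largest change at 30 nmol/kg and the most abundant gene, with the 5 genes most like Ucp1. Others are marked as chosen after their values were seen. Coordinates are GRCm38. The study's methods describe stranded libraries read from both ends for liver, while the labels describe another kit and single reads. 1 result of the receptor list is not reported here.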

Additional observations from a re-analysis of the deposited data

Results flagged for a closer look

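In groups of 6 mice, 10 of 84 groups had a mouse far from the others by Dixon's test, where chance gives about 1 in 20 groups (4.2 of 84). Elovl3 had such a mouse in eWAT at 10 nmol/kg BI 456906 (mouse 15, 11.1 TPM, next 2.51), at 30 nmol/kg (mouse 27, 5.32 TPM, next 1.35) and at 100 nmol/kg semaglutide (mouse 42, 4.44 TPM, next 1.06). Each of these mice also had the highest sum of hepatocyte markers in its group (3349, 1157 and 1501 TPM). In the other eWAT groups it was Cox7a1 in mouse 25 at 30 nmol/kg BI 456906 (31.1 TPM, next 20.1), Adrb3 in mouse 31 at 20 nmol/kg semaglutide (457 TPM, next 232) and Prdm16 in mouse 10 at 3 nmol/kg BI 456906 (6.25 TPM, next 4.20). Ckmt2 was above 0 in mouse 31 and in mouse 39 at 100 nmol/kg semaglutide (0.03 TPM each, from 1 read). In liver, Ppargc1b was high in vehicle library 44 (2.04 TPM, next 1.45) and in library 56 at 10 nmol/kg BI 456906 (3.81 TPM, next 2.77). The 84 groups include those of Ckmt2 with every value at 0, which cannot be flagged. The chance number also takes values as normal and independent, while these genes share libraries. The 10 flags are therefore no test of an excess over 4.2.

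The response differed between the tissues by the interaction test in 6 results (eWAT minus liver, log2). For Ppargc1b the differences were -0.74 (FDR 0.0112), -1.11 (FDR 0.000104) and -1.33 (FDR 1.07e-06) at 10, 20 and 30 nmol/kg BI 456906, and -1.11 (FDR 9.94e-05) and -1.004 (FDR 0.000332) at 20 and 100 nmol/kg semaglutide. For Ppargc1a it was -1.10 (FDR 0.0308) at 10 nmol/kg BI 456906, which missed the threshold without eWAT library 6 (FDR 0.0521) or 17 (FDR 0.0804) and without liver library 48 (FDR 0.0511) or 60 (FDR 0.0513).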

How the results depend on the processing

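Against vehicle in eWAT, 1 call became 2 in edgeR, 3 in DESeq2, 0 on log2(TPM + 1) and on log2(TPM + 0.1), 4 with sample quality weights, 3 with the adipocyte covariate (Dio2 and Ppargc1a), 3 with the mesothelial covariate (all Elovl3, with Ppargc1a lost) and 3 by the FDR alone, and was 1 to 5 with a library left out (5 without vehicle mouse 1, where Elovl3 was called at 4 treatments). Between the compounds, 0 calls became 1 with RLE factors, library size alone, at least 10 counts in every library, edgeR, either TPM scale or the hepatocyte covariate, 2 in DESeq2 and 3 with quality weights, and was 0 to 1 with a library left out. The 2 slopes became 4 with quality weights or the adipocyte covariate. They became 3 in DESeq2 (with Ucp1) and on either TPM scale (with Elovl3), and 1 on log2(dose + 1). They stayed 2 with the mesothelial covariate but with Elovl3 in place of Cox8b, and were 2 to 3 with a library left out. The 8 liver calls were 7 to 9 with a library left out and stayed within 1.5 times in 10 of 10 other settings. The 6 tissue differences became 10 on either TPM scale and were 5 to 7 with a library left out. The 48 values above the vehicle range became 84 against the second highest vehicle mouse and 50 to 60 without a vehicle mouse. The causes were not tested. No called value reversed. No paired analysis was possible because the library numbers are different in every group. The depth of Ucp1 (400 reads) and Ckmt2 (7 reads) limits what can be seen of them.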
